A study of Mus musculus with 3 samples.

Results

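The skeletal muscle genes are 39 genes listed by function: 4 myogenic transcription factors, 27 genes of the sarcomere and its attachments, 4 genes of the membrane and calcium handling, and 4 subunits of the acetylcholine receptor of muscle. They were followed in the palate before, during and after fusion as 39 of the 18193 genes named by a probe set on the array. Each gene is represented by 1 probe set, the one with the highest mean of the deposited signals over the 3 arrays. Of the 39 genes, 27 were above the background floor (a level set from sensory receptor genes, which palatal tissue should not express) on at least 1 array, and 24 of these had their highest signal before fusion, 2 during and 1 after fusion. These 27 genes have a ratio to the array before fusion. During fusion 16 of them (59.3%) were more than 2-fold lower than before, against 3.18% of all genes with a ratio. After fusion 17 (63.0%) were, against 9.59%, and none of the 27 was called more than 2-fold higher at either stage. The 39 genes were chosen with earlier results of these data known, and the part of that choice in these shares was not tested. The other 12 could not be judged, and *Ckm*, under the floor before fusion, has only a lower bound.

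Skeletal muscle forms from mononucleated precursors that commit to the lineage under basic helix-loop-helix factors (*Myf5*, *Myod1*, *Myog*, *Myf6*), leave the cell cycle and fuse into fibres. The factors bind E boxes, short DNA motifs found in front of many muscle genes, and the fibres then assemble actin and myosin filaments, the troponin switch on the thin filament, and the Z-discs and M-lines that hold the filaments in register. Muscles of the soft palate arise from precursors that enter the palatal mesenchyme, whereas the anterior palate becomes bone.

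Explants of the maxilla were taken from ICR mouse fetuses labelled female at E14 (embryonic day 14), without the tongue, and cultured in suspension in BGJb medium, where the palatal shelves meet and fuse. After 5 h of culture, before fusion, the sample was the shelf margin, whereas at 24 h (during fusion) and 60 h (after fusion) it was the midline of the palate. All 3 stages were untreated and of the same strain, and 1 Affymetrix Mouse Genome 430 2.0 array was deposited per stage, so no comparison has a replicate and no test between stages was possible. Stage, hours in culture and the piece of tissue changed together and cannot be told apart, and in a tissue extract fewer cells of a type and less RNA per cell cannot be told apart either.

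Values are MAS5 signals (fluorescence intensity, linear scale) after scaling of the 3 arrays to one trimmed mean. The background floor of an array was set from 83 probe sets of olfactory, vomeronasal and taste receptors, at their 95th percentile, and lay at 19.4 before fusion, 13.3 during it and 14.6 after it. In a ratio, a signal under the floor was replaced by the floor, which makes the ratio a bound, and no ratio is given where both signals were under it. A bound that did not pass 2-fold was counted as within 2-fold, although the change behind it could be larger. Of all genes, 68.5% exceeded the floor before fusion, 74.7% during it and 74.5% after it. The 8 listed markers of palatal epithelium and the 8 of palatal mesenchyme were all above the floor at each stage, and the ratio of the 5′ to the 3′ probe set of *Actb*, a sign of RNA integrity, was 0.718, 0.713 and 0.718.

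Promoter sequences are shown because the list holds both the myogenic factors and genes known to carry their E boxes. Windows from 250 bases before to 50 bases from the annotated start were taken from RefSeq (build GRCm38.p6) and held for 30 of the 39 genes (33 windows, since *Tnni1*, *Tnnt2* and *Ldb3* have 2 each and those of *Tnni1* and *Ldb3* overlap). Capitals mark matches, on either strand, to the E box CANNTG, the TATA box TATAAA and the MEF2 site YTAWWWWTAR, and CAGCTG is one form of CANNTG. In these patterns N is any base, Y is C or T, W is A or T and R is A or G. A stretch that departs from a pattern at any base was not marked or counted, so an unmarked window can still hold a variant site. The first 3 sequences are a myogenic factor (*Myog*, chr1:134289754-134290053, plus strand) and a pair of receptor subunits, of which *Chrna1* (chr2:73580289-73580588, minus strand) was above the floor before fusion and *Chrng* (chr1:87205561-87205860, plus strand) was not. The other two are sarcomere genes with large ratios, *Actc1* (chr2:114052826-114053125, minus strand) and *Mylpf* (chr7:127211358-127211657, plus strand), which were picked after their values were seen.
Myog: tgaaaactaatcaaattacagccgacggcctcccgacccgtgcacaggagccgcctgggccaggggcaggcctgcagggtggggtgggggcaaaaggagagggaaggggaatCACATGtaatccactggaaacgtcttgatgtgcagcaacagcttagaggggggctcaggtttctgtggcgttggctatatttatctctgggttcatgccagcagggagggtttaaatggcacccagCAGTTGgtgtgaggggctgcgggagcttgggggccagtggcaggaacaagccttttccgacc
Chrna1: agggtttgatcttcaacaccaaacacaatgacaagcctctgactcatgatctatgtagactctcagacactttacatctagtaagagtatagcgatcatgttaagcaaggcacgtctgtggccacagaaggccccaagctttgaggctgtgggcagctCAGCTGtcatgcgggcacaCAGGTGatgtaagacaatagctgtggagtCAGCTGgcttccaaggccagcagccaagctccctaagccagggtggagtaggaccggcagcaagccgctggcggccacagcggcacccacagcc
Chrng: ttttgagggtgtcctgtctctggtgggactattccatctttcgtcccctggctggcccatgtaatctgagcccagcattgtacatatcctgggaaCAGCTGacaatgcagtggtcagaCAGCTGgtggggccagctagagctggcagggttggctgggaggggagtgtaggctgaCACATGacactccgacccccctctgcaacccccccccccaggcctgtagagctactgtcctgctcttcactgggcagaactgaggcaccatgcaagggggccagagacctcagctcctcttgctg
Actc1: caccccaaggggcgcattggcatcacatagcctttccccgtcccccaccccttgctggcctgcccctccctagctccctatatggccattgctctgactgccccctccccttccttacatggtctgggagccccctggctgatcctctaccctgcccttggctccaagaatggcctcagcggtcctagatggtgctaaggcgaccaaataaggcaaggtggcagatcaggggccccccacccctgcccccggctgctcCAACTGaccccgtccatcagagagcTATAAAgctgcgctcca
Mylpf: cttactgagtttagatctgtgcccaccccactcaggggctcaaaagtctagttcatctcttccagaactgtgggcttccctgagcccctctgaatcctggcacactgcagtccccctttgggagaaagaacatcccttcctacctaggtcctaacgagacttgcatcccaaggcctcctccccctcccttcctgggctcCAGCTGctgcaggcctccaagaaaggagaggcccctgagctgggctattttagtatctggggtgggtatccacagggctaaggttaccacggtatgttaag

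The *Myog* window held E boxes whose first bases were at -138 and -12 from the start site, and neither was CAGCTG. The window of *Chrna1* held E boxes with first bases at -92, -73 and -44, the outer pair of the form CAGCTG. That of *Chrng* had CAGCTG at -155 and -132 and another E box at -75. *Mylpf* had a single CAGCTG, at -51. In *Actc1* both matches, an E box and TATAAA, lay after the annotated start, at 8 and 33 where 0 is the first transcribed base.

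Over all windows of the muscle genes, CAGCTG was found in 14 of 33 (42.4%), against 16.3% of the 32851 windows of all genes. The overlapping windows of *Tnni1* hold the same CAGCTG, which is counted in both, and by gene it was found in 13 of 30. Any E box was found in 27 of 33 (81.8%), against 72.3% of all windows. TATAAA was found in 9 of 33 (27.3%), against 13.6%, and the MEF2 site in 3 of 33 (9.09%, those of *Casq2*, *Myh8* and *Ttn*), against 3.19%. In the *Myh8* window the TATAAA and MEF2 matches overlap. After fusion 6 of the 13 genes with CAGCTG (2 had no ratio) and 9 of the 17 without it (4 had no ratio) were more than 2-fold lower than before. Over all genes with a ratio, 9.59% were. A match is a description of the letters in the window and not evidence of binding.

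**Figure D1:**
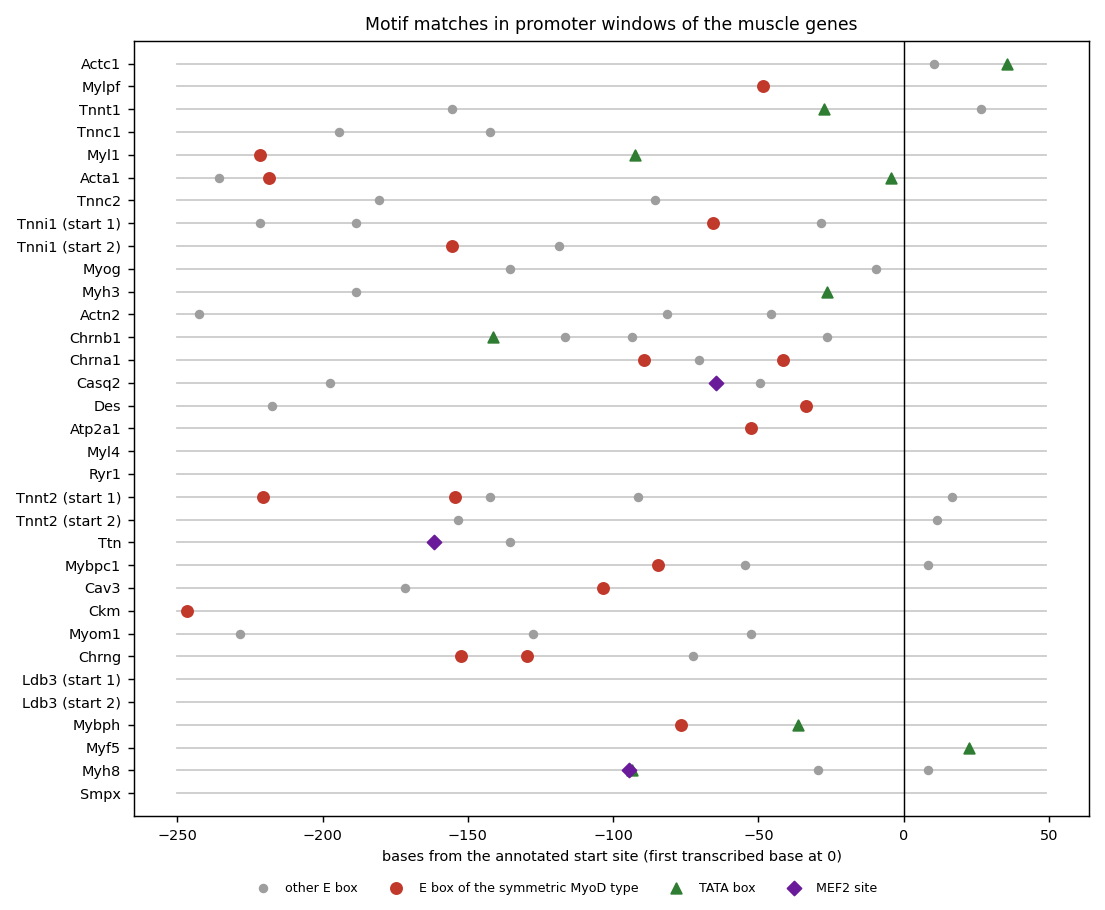
Matches to the E box, its form CAGCTG, the TATA box and the MEF2 site in the promoter windows of the muscle genes. The horizontal axis gives the distance from the annotated start site in bases (0, first transcribed base), each row is 1 window, and CAGCTG appears in 14 of the 33 windows.

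Of the 4 myogenic factors, the 2 that were detected had lower signals at both later stages. *Myod1*, a determination factor of the lineage, had signals of 61.4 before, 3.12 during and 6.81 after fusion. Only the first was above the floor, which puts the later stages at least 4.62-fold (during) and 4.22-fold (after) lower. *Myog*, the factor that starts terminal differentiation, had 66.7, 33.2 and 15.7, all above the floor and lower at each step. Against the array before fusion it was lower by 2.01-fold during and by 4.25-fold after fusion, and it was 2.12-fold lower after than during fusion. *Myf5*, which acts early in commitment, had 10.9, 0.367 and 0.296, and *Myf6*, a factor of late fibre maturation, had 1.11, 0.459 and 0.986. Both were under the floor on all 3 arrays and have no ratio.

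Among the actins and myosins, *Actc1*, the cardiac actin that is also the main actin of embryonic skeletal muscle, had the largest ratio between the arrays after and before fusion among the genes above the floor on both. Its signals were 694 before, 126 during and 44.6 after fusion. It was thus 5.52-fold lower during fusion and 15.6-fold lower after it than before, and 2.82-fold lower after than during fusion. *Acta1*, the skeletal actin that predominates later, had 198, 84.9 and 37.8, lower than before fusion by 2.33-fold during and 5.24-fold after it. *Mylpf*, the regulatory light chain of fast fibres, had 147, 36.5 and 15.6 and was 4.02-fold and 9.41-fold lower at the later stages. The essential light chain *Myl1*, also of fast fibres, had 106, 24.9 and 19.8 and was 4.28-fold and 5.37-fold lower. These genes were above the floor on every array and lower at each step.

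*Myl4*, a light chain of the embryonic muscle and the atrium, was lower during fusion and less so after it. It had 95.5, 36.5 and 55.1, lower than before fusion by 2.62-fold during and 1.73-fold after it, and 1.51-fold higher after than during fusion. *Myh3*, the embryonic myosin heavy chain, had 58.0 before and 16.0 during fusion and was under the floor at 5.52 after it, 3.63-fold lower during fusion and at least 3.98-fold lower after than before fusion. The perinatal heavy chain *Myh8* was under the floor throughout, at 6.24, 3.40 and 1.38. The adult fast heavy chains *Myh1*, *Myh2* and *Myh4*, which are not among the 39, were also under the floor on all arrays, with highest signals of 9.64, 8.82 and 7.30.

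The troponins regulate the thin filament through calcium binding (troponin C), inhibition (troponin I) and attachment to tropomyosin (troponin T), in slow, fast and cardiac forms. *Tnnc1*, the slow and cardiac troponin C, had signals of 184 before, 43.3 during and 26.4 after fusion and was 4.24-fold and 6.95-fold lower at the later stages. *Tnnc2*, the fast form, had 73.8, 24.8 and 7.79 and was 2.98-fold lower during and at least 5.07-fold lower after than before fusion. Slow troponin I, *Tnni1*, had 72.1, 5.602 and 7.30, and only the array before fusion was above the floor (at least 5.42-fold lower during fusion and at least 4.95-fold after it). Slow troponin T, *Tnnt1*, kept an intermediate signal during fusion. It had 110.5, 55.7 and 5.82, which was 1.98-fold lower during fusion and at least 7.58-fold lower after than before fusion.

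*Tnnt2*, the cardiac troponin T that embryonic skeletal muscle also uses, had 39.01, 18.9 and 23.1, which was 2.06-fold lower during fusion and 1.69-fold lower after it than before. The fast forms *Tnni2* (17.6, 7.25 and 5.62) and *Tnnt3* (15.2, 8.72 and 14.4) were under the floor on all arrays. Thus the slow and cardiac troponins on the list were above the floor before fusion, and of the 3 fast forms only *Tnnc2* was.

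**Figure D2:**
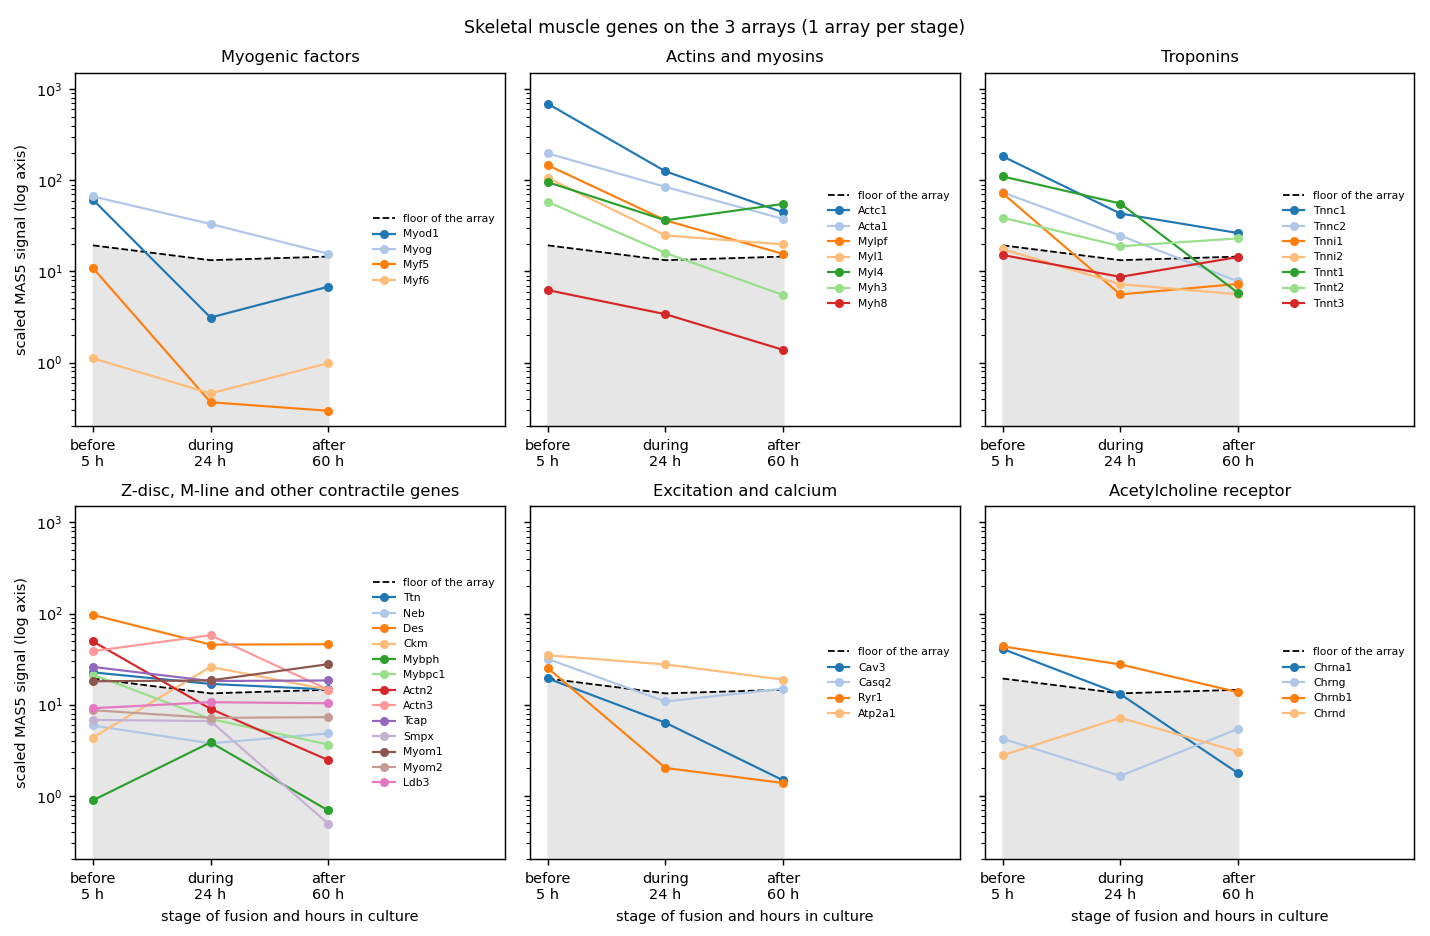
Scaled signal of the muscle genes at the 3 stages in time order (logarithmic axis, arbitrary intensity units), 1 line per gene and 1 panel per function, with 1 array per stage and no error bars. *Actc1* is at 694, 126 and 44.6, and most detected genes lie highest before fusion.

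Of the other sarcomere genes, 3 passed 2-fold in a comparison with the array before fusion. *Des*, the intermediate filament desmin, which smooth muscle also makes, had 96.8, 45.6 and 46.1, about 2-fold lower at both stages (2.12-fold and 2.10-fold). *Actn2*, the actinin of the Z-disc, had 49.5 before fusion and was under the floor at 8.999 and 2.47 afterwards, at least 3.72-fold and 3.40-fold lower. *Actn3*, the actinin of fast fibres, differed from most in being brightest during fusion, at 38.7, 57.9 and 14.6. It was 1.496-fold higher during than before fusion, 2.65-fold lower after than before and 3.96-fold lower after than during fusion. Its signal after fusion was barely above the floor of that array. With the floor at the median of each array, *Actn3* was within 2-fold after over before fusion (log2 ratio -0.53).

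The giant protein titin, *Ttn*, had 22.6, 16.9 and 14.7, and its titin cap, *Tcap*, had 26.0, 18.2 and 18.4. Neither passed 2-fold in any comparison. *Mybpc1*, the slow myosin-binding protein C, had 21.4, 6.98 and 3.65, just above the floor before fusion and under it afterwards, which leaves bounds of only 1.61-fold and 1.47-fold.

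*Ckm* and *Myom1* were the detected genes that were not above the floor before fusion. *Ckm*, the muscle creatine kinase, had 4.35 before, 26.0 during and 14.6 after fusion, which made it at least 1.34-fold higher during than before. *Myom1*, a crosslinker of the M-line, had 18.1, 18.5 and 27.8 and was at least 1.44-fold higher after than before fusion and 1.51-fold higher after than during. Under the floor on all arrays were *Neb* (nebulin, the thin filament ruler), *Mybph*, *Smpx*, *Myom2* and *Ldb3*, whose signals lay between 0.493 and 10.7.

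The 4 genes of the membrane and calcium handling were detected before fusion, and 1 of them passed 2-fold. *Cav3*, the caveolin of the muscle membrane, had 19.4, just above the floor, before fusion and 6.34 and 1.48 at the later stages, with bounds of 1.46-fold and 1.33-fold. *Casq2*, a calsequestrin that stores calcium in the sarcoplasmic reticulum, had 31.8, 10.8 and 14.99, at least 2.39-fold lower during and 2.12-fold lower after than before fusion. *Ryr1*, the release channel, had 25.2, 2.02 and 1.38, with bounds of 1.89-fold and 1.73-fold. Its second probe set gave 22.5, 1.38 and 0.69. *Atp2a1*, the calcium pump of fast fibres, had 34.8, 27.6 and 18.8 and was 1.26-fold lower during fusion and 1.85-fold lower after it than before.

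The acetylcholine receptor of fetal muscle is built from the subunits alpha (*Chrna1*), beta (*Chrnb1*), delta (*Chrnd*) and gamma (*Chrng*), the last of which is replaced by epsilon (*Chrne*) as the endplate matures. *Chrna1* had 40.9 before fusion, 13.0 during it and 1.78 after it, and was at least 3.07-fold and 2.81-fold lower at the later stages. *Chrnb1* had 43.6, 27.6 and 13.7, which was 1.58-fold lower during and at least 2.99-fold lower after than before fusion. *Chrng* (4.24, 1.65 and 5.42) and *Chrnd* (2.79, 7.16 and 3.06) were under the floor throughout, so 2 of the 4 subunits were not detected at any stage. *Chrne* had 5.13, 1.56 and 17.5, above the floor only after fusion. Its signal after fusion was lower than the floor before fusion (19.4), so no rise between these 2 arrays can be read.

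**Figure D3:**
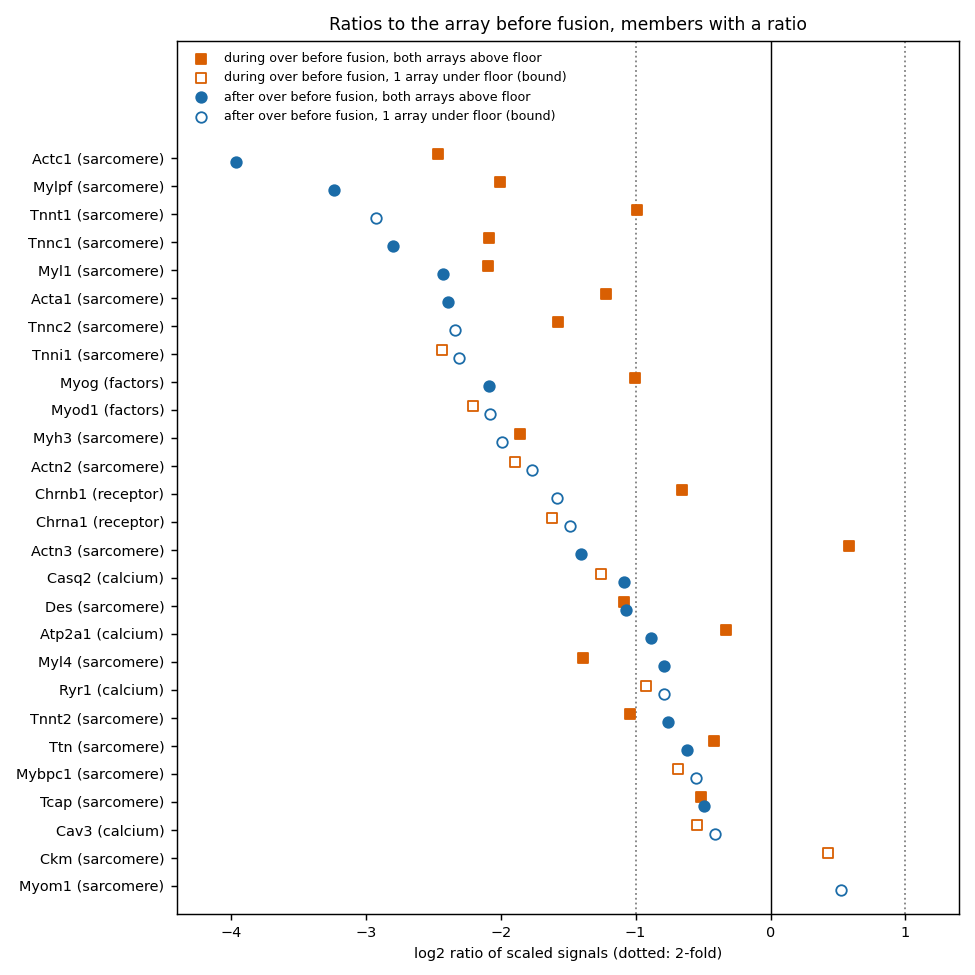
Ratios of the scaled signals of each muscle gene during and after fusion to those before it, on a log2 axis. Bounds are marked apart from measured ratios, and genes under the floor on both arrays are left out. Also left out are bounds that run against the array above the floor (*Ckm* after and *Myom1* during fusion). After over before fusion, 17 genes lie past 2-fold on the lower side and none on the higher side.

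As a group, the muscle genes had lower ratios at both later stages than the genes of the array as a whole. During over before fusion, 16 of 39 genes were more than 2-fold lower (59.3% of the 27 with a ratio), 11 were within 2-fold (bounds included, here and below), 12 had no ratio and 0 were higher. Over all genes, 3.18% of the 13941 with a ratio were lower and 5.49% higher. The median log2 ratio of the muscle genes was -1.08, against -0.05 over all genes. After over before fusion, 17 muscle genes were lower (63.0% of the 27 with a ratio), 10 within 2-fold, 12 without a ratio and 0 higher. Over all genes, 9.59% of 14010 were lower and 12.6% higher, and the median log2 ratio was -1.49 for the muscle genes against -0.09. These 2 comparisons share the array before fusion. After over during fusion, 6 muscle genes were lower (*Myog*, *Actc1*, *Acta1*, *Mylpf*, *Tnnt1* and *Actn3*), which is 30% of the 20 with a ratio. Another 14 were within 2-fold, 19 without a ratio and 0 higher, where 5.07% of 14351 genes were lower and 8.72% higher.

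Of the 16 genes called lower during than before fusion, 11 were above the floor on both arrays, and of the 17 called lower after than before, 9 were. The rest were above it on the array before fusion and under it on the later array, and their ratios are bounds. The genes counted as within 2-fold also include bounds. Among all muscle genes with a ratio, those above the floor on both arrays were 17 (during over before), 14 (after over before) and 15 (after over during). Summed over the 39 genes, the signal was 2468 before, 857 during and 521 after fusion. The number above the floor was 25 before, 19 during and 16 after fusion, whereas over all genes the share above the floor was lowest before fusion.

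By function, a ratio to the array before fusion was available for 2 of 4 factors, 19 of 27 sarcomere genes, all 4 calcium genes and 2 of 4 receptor subunits. Of these, 2 factors, 12 sarcomere genes, 1 calcium gene and 1 receptor subunit were more than 2-fold lower during than before fusion, against 3.18% of all genes with a ratio. After over before fusion the same functions had 2, 12, 1 and 2, against 9.59%. With the floor at the median of each array, *Casq2* and *Chrna1* did not pass 2-fold in either comparison, nor did *Chrnb1* after over before fusion. *Casq2* also fell short on the deposited signals. Some sarcomere calls, such as those of *Actn2*, were lost with the median floor too. The median log2 ratio after over before fusion was -2.08 for the 2 detected factors, -1.76 for the 19 detected sarcomere genes, -0.84 for the 4 calcium genes and -1.54 for the 2 detected receptor subunits. With so few genes outside the sarcomere, the functions are not ranked.

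The spread available in these data comes from genes with several probe sets on the same arrays, and it holds no variation between embryos or hybridizations. The log2 ratios of such probe sets had an SD of 0.37 (during over before), 0.46 (after over before) and 0.44 (after over during), which was 0.51, 0.54 and 0.56 for signals under 50. The second probe set of *Tnnt2* gave 32.4, 17.6 and 24.8, with the same direction as the first, whereas that of *Ttn* gave 11.5, 6.52 and 20.02. Ratios near 2-fold such as those of *Des*, *Myog* during fusion and *Tnnt2* are within this spread of the threshold.

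Other muscle genes, in 6 lists of 105 genes, differed less from all genes than the 39 did. These lists, like that of the 39, had been drawn up with earlier results of these data known. After over before fusion, 7 of the 57 with a ratio were more than 2-fold lower (12.3%), 46 within 2-fold (bounds included) and 4 higher (7.02%), where all genes gave 9.59% and 12.6%, and the median log2 ratio was -0.15. Of these 57, 35 were above the floor on both arrays. During over before fusion, 7 of 52 were lower (13.5%), against 3.18% of all genes. Of the 7 lower after than before fusion, 4 were regulators or fusion genes (*Vgll2*, *Dmrt2*, *Mymk* and *Eya1*). *Vgll2*, a cofactor of muscle differentiation, had 150 before, 34.7 during and 23.97 after fusion (4.33-fold and 6.27-fold lower). *Dmrt2*, which acts upstream of *Myf5* in the mouse somite, had 586, 430 and 139.6 (4.20-fold lower after than before). *Mymk*, which is needed for myoblast fusion, had 41.8, 4.87 and 6.71 (at least 3.14-fold and 2.87-fold lower). The upstream factor *Pax3*, which marks muscle precursors and neural crest, stayed within 2-fold at 73.7, 82.4 and 99.9. *Pax7*, the factor of satellite cells, was above the floor only after fusion (3.68, 2.48 and 20.02), which leaves a bound of only 1.03-fold higher than before.

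In the lists of sarcomere, junction, membrane and metabolic genes, most genes with a ratio did not pass 2-fold after over before fusion, many of them as bounds. Above the floor on both arrays were 4 of 11 (sarcomere), 4 of 5 (junction), 5 of 8 (membrane) and 5 of 10 (metabolic). In the list of excitation and calcium 4 of 8 did not pass 2-fold, with 3 higher and 1 lower. *Klhl41*, a sarcomere assembly protein, had 26.6, 9.37 and 0.789, at least 2.00-fold lower during and at least 1.83-fold lower after than before fusion. *Trim63*, a ubiquitin ligase of muscle, had 30.4, 16.2 and 10.7 and was at least 2.09-fold lower after than before fusion. *Tpm2*, a tropomyosin that smooth muscle and fibroblasts also make, was within 2-fold but brighter at the later stages (612, 1158 and 1063). *Srl*, the luminal protein sarcalumenin, had 93.9, 49.9 and 22.9 and was 4.10-fold lower after than before fusion. Others were more than 2-fold higher after than before fusion. *Hrc*, a calcium-binding protein of the reticulum, had 26.4, 56.1 and 95.4 (3.61-fold higher), and *Atp2a2*, the calcium pump of slow and cardiac muscle that most other cells also make, had 1137, 1100 and 2561 (2.25-fold higher). *Fabp3*, a fatty acid carrier of muscle and heart, had 34.1, 123 and 141 (4.12-fold higher). In the same metabolic list *Art1*, an ADP-ribosyltransferase of the muscle surface, had 42.1, 11.4 and 16.7 (2.53-fold lower after than before fusion), and *Hjv*, the iron regulator hemojuvelin, had 28.3, 13.4 and 10.8 (at least 1.94-fold lower). *Agrn*, the nerve-derived organiser of the junction, was within 2-fold at 1083, 1216 and 916, as were *Dok7* (49.4, 39.3 and 28.8) and *Lrp4* (57.4, 41.05 and 42.1), partners of its kinase *Musk*, which was itself under the floor on all arrays. Genes of the dystrophin complex and membrane repair were also within 2-fold, among them *Dmd* (dystrophin, 58.4, 55.6 and 34.9), *Dysf* (dysferlin, 40.02, 21.4 and 21.9) and *Sspn* (sarcospan, 193, 219 and 146).

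**Figure D4:**
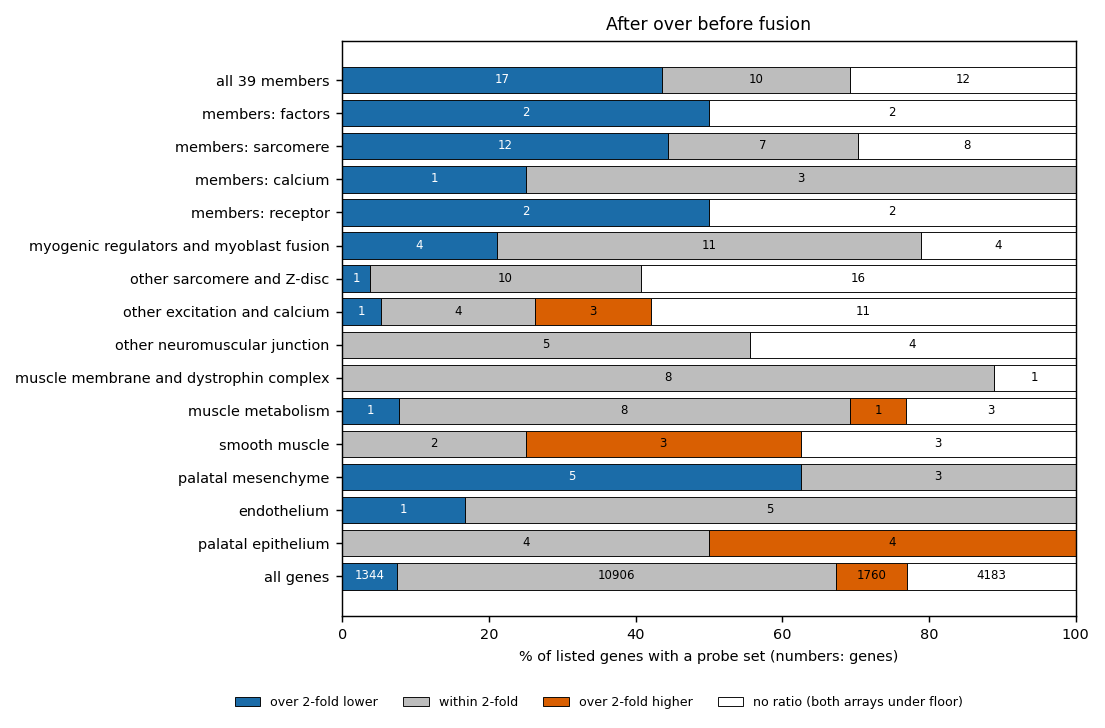
Share of genes more than 2-fold lower, within 2-fold, more than 2-fold higher and without a ratio, after over before fusion. Bounds that did not pass 2-fold are counted as within 2-fold. Rows are the muscle genes together and by function, the lists of other muscle genes, smooth muscle, palatal and endothelial markers, and all genes. The horizontal axis gives the percent of genes with a probe set. None of the 39 listed muscle genes was called on the higher side, where 1760 of all 18193 genes were (12.6% of those with a ratio).

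Lists of markers of other cells were read beside these results. Smooth muscle genes were summed at 1033 before, 2608 during and 2308 after fusion over 8 genes, a sum carried by *Acta2* (690.3, 1283 and 1654) and *Tagln* (117, 966 and 299). Of those with a ratio, 1 of 6 was more than 2-fold higher during and 3 of 5 after than before fusion, and *Cnn1* and *Lmod1* were under the floor on all arrays. Of 8 heart genes, summed at 93.7, 99.1 and 72.2, 2 exceeded the floor before fusion, 3 during it and 2 after it, with *Myl7*, *Gata4* and *Tbx20* under it on all arrays. *Hand2*, which is also made outside the heart, had 36.3, 18.5 and 5.62, at least 2.49-fold lower after than before fusion, and *Nppb*, a natriuretic peptide of the heart, had 21.4, 27.9 and 2.86. The part of heart genes in the signals of the cardiac forms *Actc1*, *Tnnc1* and *Tnnt2* was not tested.

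Markers of the palate itself also shifted between the pieces. Mesenchyme genes were summed at 9882, 5431 and 3408, and 5 of the 8 were more than 2-fold lower after than before fusion, while epithelial genes were summed at 9429, 16048 and 22656. Of 6 endothelial genes (summed at 888, 449 and 494), 4 were more than 2-fold lower during and 1 after than before fusion, and the 6 macrophage genes (434, 893 and 2222) were all more than 2-fold higher after it. Schwann cell and neuron genes (495, 410 and 564) went both ways, with 3 of 6 lower and 1 higher during than before fusion. After fusion *Stmn2*, a neuronal gene, was 7.76-fold higher, *Nefl*, a neurofilament, 2.90-fold lower and *Sox10*, a Schwann cell factor, 2.76-fold lower than before. Of 5 tendon genes (279.6, 257 and 318) 4 were within 2-fold, and of 7 housekeeping genes (30051, 28255 and 30940) 6 were, in both comparisons with the array before fusion. The part of these shifts in the lower muscle signals was not tested.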

How the data were processed

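RNA of palatal explants was hybridised to 1 array per stage. The deposited intensity values are signals on a linear scale that the authors computed by the MAS5 algorithm in GeneChip Operating Software, and the build they used is not given in the sources used here. The study's methods describe several samples per stage, with RNA extracted from each palate, and do not state how these relate to the single array.

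Each array was scaled to a common mean, trimmed by 2% at either end, because the deposited trimmed means were 123.6 before fusion, 150.0 during it and 139.7 after it. Signals under the floor, set at the 95th percentile of 83 sensory receptors, were raised to it, and deposited zeros (4 values, none among the muscle genes) were set to 0.1. The platform annotation named 1 gene for 34945 probe sets, several for 932 and none for 9160, and 34754 were matched by gene ID to GRCm38.p6. Promoter windows came from RefSeq. A gene was called past 2-fold. The script was tested on simulated data. Python 3.11.15, numpy 2.4.6, pandas 2.3.3 and matplotlib 3.10.9 were used.

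The 39 genes and all lists were chosen with earlier results of these data known. All 39 were named. Of the other lists, up to 3 genes above the floor with the largest ratio after over before fusion were named, with *Pax3*, *Pax7*, *Chrne*, *Musk*, *Mymk*, *Myh1*, *Myh2* and *Myh4* whatever their values. With 1 array per stage the number of arrays limits the precision, and depth does not apply. Alternatives were other scalings, other floors, other rules for probe sets, and thresholds of 1.5-fold and 4-fold.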

Additional observations from a re-analysis of the deposited data

How the results depend on the processing

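The median log2 ratio of the muscle genes stayed below 0 under every alternative run: from -1.35 to -0.80 for during over before, from -1.86 to -1.11 for after over before and from -0.78 to -0.45 for after over during fusion. More than 2-fold lower during than before fusion were 11 genes (signals as deposited) to 18 (scaling to one median, quantile normalization or the poly-A controls), against 16, and lower after than before were 12 (floor at the median of each array, or probe sets with no suffix) to 21 (poly-A controls), against 17. Past 2-fold in every setting with a value were 7 of the 16, 11 of the 17 and, after over during fusion, 4 of the 6, where *Myog* was lost with one median, quantile normalization and the median floor, and *Mylpf* with the median floor. With no floor, 3, 1 and 3 genes were higher in the 3 comparisons in that order, 23 and 24 were lower against the array before fusion and 16 were lower after than during fusion. At 4-fold the lower genes were 6, 10 and 0, and at 1.5-fold 10 were lower and 2 higher after than during fusion. *Myog* was not past 2-fold during over before fusion on the deposited signals or with scaling to the hybridization controls. One floor for the 3 arrays was chosen after seeing the data and gave 16, 17 and 6, against 2.76%, 9.33% and 5.04% of all genes.

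Scaling moved all genes too. Their median log2 ratio shifted during over before fusion by 0.28 (deposited), -0.11 (one median), 0.12 (hybridization controls) and -0.27 (poly-A controls), after over before by 0.18 (deposited) and -0.37 (poly-A), and after over during by -0.10 (deposited), 0.14 (one median) and -0.15 (hybridization). Of the genes past 2-fold during over before, 63.4% were higher in the main setting, 87.1% as deposited, 49.96% with one median, 75.8% with the hybridization and 30.9% with the poly-A controls. After over before it was 56.7%, with 70.8% (deposited) and 28.5% (poly-A), and after over during 63.3%, with 53.3% (deposited), 76.3% (one median) and 48.4% (hybridization). Over the 2-fold settings, genes lower numbered 202 to 1822 during over before (443 here), 891 to 2959 after over before (1344) and 483 to 2032 after over during (727). Genes higher numbered 458 to 2192, 1178 to 3149 and 937 to 2601, against 766, 1760 and 1252.

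No paired analysis was possible because each stage has 1 array. Most muscle signals lay within a few fold of the floor, so many ratios are bounds, and neither the variation between embryos nor that between hybridizations can be judged.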
